A study of Mus musculus with 6 samples.

Results

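The genes described here were 37 genes of cholesterol and fatty acid synthesis, with their regulators and efflux genes, measured in mouse induced T (iT) cells. They were taken by name from a table of 23420 rows, and all 37 were found, with Msmo1 listed under its older symbol Sc4mol. The list comprised 8 genes of the early sterol steps from acetyl-CoA to squalene, 10 of the late steps from squalene to sterol, 5 of the SREBP control system, 9 of fatty acid synthesis and 5 of efflux, transport and storage.

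The study compared single-positive iT cells of the CD4 (CD4SP) and CD8 (CD8SP) lineages, with 3 libraries of each. The cells came from pluripotent stem cells of C57BL/6 background (CD45.2) that carry an rtTA-TRE-Runx1-p2a-Hoxa9 cassette at Rosa26, called iR9 cells. Doxycycline switched the cassette on during blood differentiation in culture, and the progenitors were then injected into sublethally irradiated B-NDG mice (CD45.1, 8 to 10 weeks old). At week 5 after transplantation, aliquots of 1000 cells were sorted from spleen for poly(A) RNA sequencing. Cassette, recipient strain and tissue were the same for both groups by these descriptions, and the groups are named for the sorted population. B-NDG mice carry the Prkdc scid and IL2rg mutations and lack T, B and NK cells of their own. Natural T cells were not analysed here. Nothing in the labels says that the 3 libraries of a group came from different mice. The paper calls each column of its heatmap of these cells a biological replicate. It does not state that each replicate was a separate mouse. The p-values therefore measure the spread between these libraries, which may not be a spread between mice. Whether recipient mouse, sort or library batch also differed between the groups is not given in the sources used here.

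Cholesterol is built from acetyl-CoA through mevalonate, isoprenoids and squalene, and squalene is then oxidised, closed into rings and trimmed to the final sterol. The pathway is switched on by SREBP transcription factors. When sterol is scarce, the escort protein SCAP carries SREBP to the Golgi for cleavage, and when sterol is plentiful, INSIG proteins hold the complex in the endoplasmic reticulum. T cells raise sterol and fatty acid synthesis through SREBP when they enter growth after antigen stimulation, and oxysterol-sensing LXR receptors oppose this by raising efflux genes such as Abca1 and Abcg1.

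Lineage markers matched the labels. Cd4 was 331, 281 and 279 TPM in the CD4SP libraries and at most 0.104 TPM in the CD8SP libraries. Cd8a was at most 2.93 TPM in CD4SP and at least 1038 TPM in CD8SP. T cell markers moved with the groups too. Of 8 examined, all tested, 4 were higher in CD4SP at a limma adjusted p under 0.05 (Cd3g, Cd2, Cd5 and Lat), beside 17.6% of all tested genes, and 1 of them, Cd5, differed by over 2-fold, at 343 ± 59.5 against 110 ± 14.4 TPM (SD, n = 3, log2 fold change 1.63, limma adjusted p = 0.00035). That call is 12.5% of the 8, beside 7.92% of all tested genes called higher in CD4SP. In 5 of the 8 every CD4SP library lay above every CD8SP library (62.5%, beside 36.6% of all tested genes). The 8 summed to 6645 to 7103 TPM in CD4SP against 5207 to 5951 TPM in CD8SP. Markers of other cells moved with the groups in part. Lyz2 made up most of the 6 myeloid markers, which summed to 17.1 to 31.5 TPM in CD4SP against 3.64 to 9.09 TPM in CD8SP, while Itgam, Csf1r, Cd14, Adgre1 and Spi1 were under 1 TPM throughout. The 5 NK markers summed to 4.45 to 13.3 TPM in CD4SP against 44.9 to 52.4 TPM in CD8SP, mainly from Klre1 and Klrb1c, with the defining Ncr1 listed at 0 in every library. The 6 B cell markers summed to 16.2 to 22.7 and 21.3 to 24.5 TPM, with Ms4a1 and Pax5 listed at 0. Ribosomal protein genes took 25.4% ± 2.58 (SD, n = 3) of all TPM among CD4SP libraries and 33.1% ± 2.03 (SD, n = 3) among CD8SP libraries. What part these shifts have in the results below was not tested. TPM, an abundance per transcript length in which every library is given the same total, hold no depth. Depth is therefore unknown. In these bulk samples, fewer cells of a type and less RNA per cell cannot be told apart.

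The sterol genes that differed by the call rule were all higher in CD4SP iT cells, and 4 of 5 belonged to the late steps. Of these 4, Hsd17b7 was under 1 TPM in every CD8SP library and passed the filter on low values only through CD4SP, so it could be called in that direction alone. Of the 37 genes, 34 reached 1 TPM in at least 3 of the 6 libraries and were tested. Sqle, Cyp51, Sc5d and Hsd17b7, all of the late steps, and Insig1 of the SREBP system were called higher in CD4SP, and no gene of the list was called higher in CD8SP. A call required a limma adjusted p under 0.05, adjusted over all 10476 tested genes, and a difference over 2-fold in log2(TPM + 1), where the added 1 shrinks the change of low genes. The 5 calls were 14.7% of the tested list, beside 7.92% of all tested genes called higher in CD4SP. That order did not hold in every setting. The shares were 2.94% and 4.24% after quantile normalization (Sqle alone called). Without CD8SP replicate 3 they were 5.88% and 6.60% (Sqle and Cyp51 called). After median-of-ratios rescaling the order held, at 5.88% and 4.62% (Sqle and Cyp51 called). For CD8SP the shares were 0 of 34 (1 at an unadjusted limma p under 0.05, Acaca) and 1.8% of all tested genes. Of all tested genes, 31.4% had an unadjusted p under 0.05 with the higher level in CD4SP and 5.69% with the higher level in CD8SP, and the unadjusted counts given for each group of genes stand beside these shares.

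By adjusted p alone, 10 of the 34 genes were higher in CD4SP (29.4%, beside 17.6% of all tested genes) and 0 in CD8SP (beside 3.23%). The added 5 were Msmo1, Mvk, Srebf2, Abcg1 and Elovl5. All 3 CD4SP libraries lay above all 3 CD8SP libraries for 17 genes (50.0%, beside 36.6% of all tested genes). The opposite held for 1 gene, Acaca (2.94%, beside 6.61%), and the groups overlapped for the other 16. The median log2 fold change, CD4SP over CD8SP, was 0.44 for the 34 genes and 0.28 for all 10476, and 24 of the 34 lay above the latter. Relative to that median of all tested genes, the log2 fold changes of the 5 called genes were 0.73 to 1.19.

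**Figure D1:**
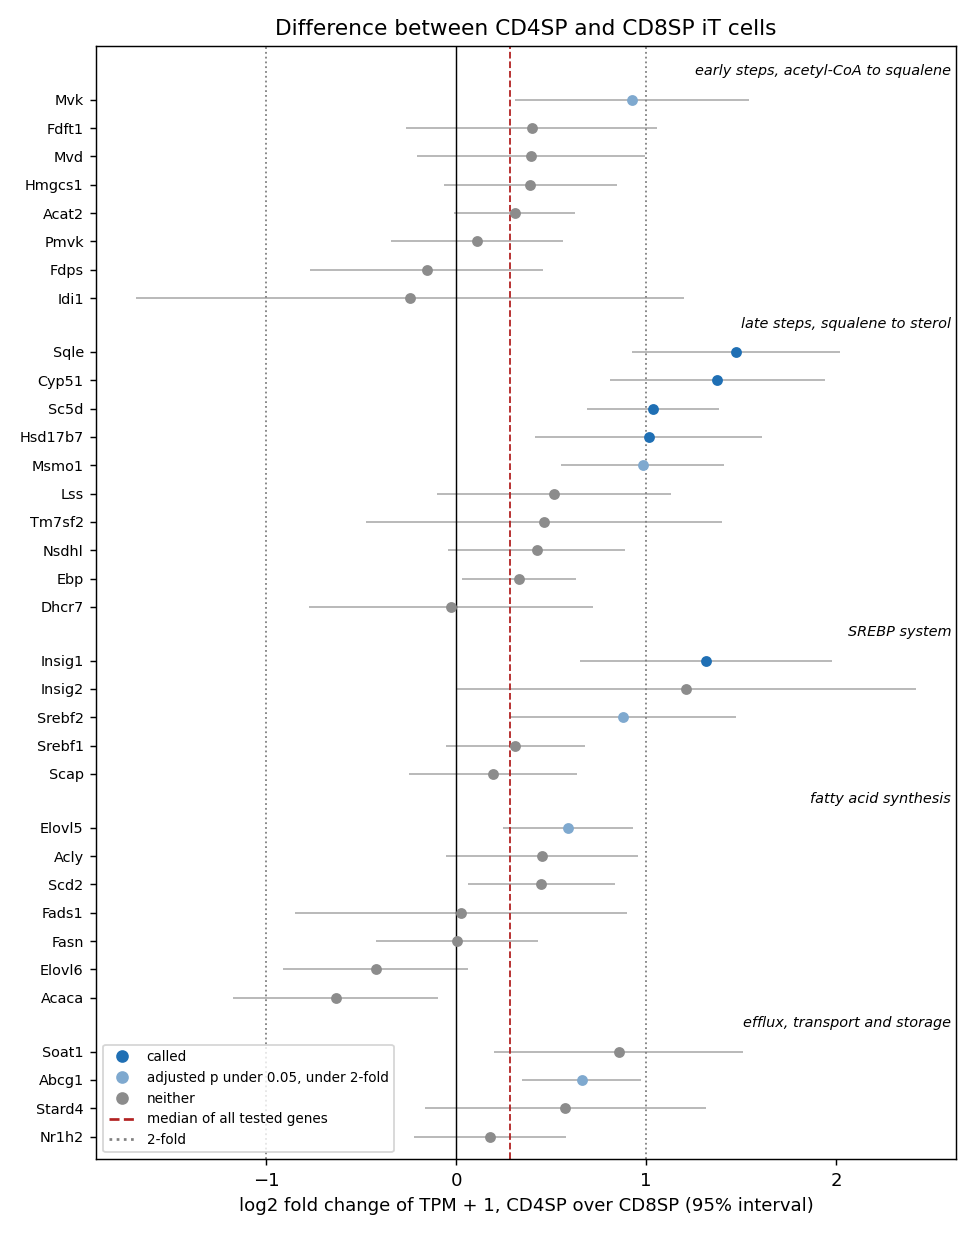
Log2 fold change of TPM + 1, CD4SP over CD8SP, for the 34 tested genes by group, with 95% intervals from the limma fit (3 libraries per group). The dashed line is the median of all tested genes (0.28) and dotted lines mark 2-fold: the called genes sit in the late steps and the SREBP system, whereas most fatty acid genes sit near or below the dashed line.

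The promoters of the called genes are shown here because these genes were called in the same direction. Hsd17b7 could be called in that direction alone, because it passed the filter on low values only through CD4SP. RefSeq promoter windows of GRCm38.p6, from 250 bases before to 50 after the transcript start, were found for 29 of the 37 genes. Fdps, Fdft1, Sqle, Scd1, Scd2, Fads1, Abcg1 and Stard4 had no entry. The 250 bases before the start are printed for the other 4 called genes, and for Hmgcs1 as the only gene of the list with a match to the sterol regulatory element core. Capitals mark matches to CCAAT, the box bound by NF-Y, or its reverse complement, to the E-box CACGTG, which reads the same on both strands, and to the sterol regulatory element core TCACNCCAC on either strand.
Cyp51, chr5:4104698-4104947, minus strand: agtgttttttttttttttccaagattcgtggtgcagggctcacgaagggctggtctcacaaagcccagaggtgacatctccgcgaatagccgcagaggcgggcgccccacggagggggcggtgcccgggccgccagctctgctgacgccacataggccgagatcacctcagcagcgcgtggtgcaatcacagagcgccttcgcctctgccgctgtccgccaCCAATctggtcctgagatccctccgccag
Sc5d, chr9:42264301-42264550, minus strand: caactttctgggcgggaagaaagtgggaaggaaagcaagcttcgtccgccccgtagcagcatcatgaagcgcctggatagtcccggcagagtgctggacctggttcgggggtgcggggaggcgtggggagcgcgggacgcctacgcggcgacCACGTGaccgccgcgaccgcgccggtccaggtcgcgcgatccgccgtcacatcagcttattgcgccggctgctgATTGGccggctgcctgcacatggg
Hsd17b7, chr1:169969206-169969455, minus strand: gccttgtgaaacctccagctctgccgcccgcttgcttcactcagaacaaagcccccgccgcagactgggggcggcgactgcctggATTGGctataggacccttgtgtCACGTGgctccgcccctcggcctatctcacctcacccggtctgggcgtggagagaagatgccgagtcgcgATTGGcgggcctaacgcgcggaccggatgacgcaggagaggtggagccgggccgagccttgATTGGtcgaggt
Insig1, chr5:28071162-28071411, plus strand: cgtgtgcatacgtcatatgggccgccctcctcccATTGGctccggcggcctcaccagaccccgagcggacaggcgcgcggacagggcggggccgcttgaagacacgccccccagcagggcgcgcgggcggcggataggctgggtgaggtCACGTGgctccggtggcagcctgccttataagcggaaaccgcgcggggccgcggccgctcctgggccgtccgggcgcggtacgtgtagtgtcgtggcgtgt
Hmgcs1, chr13:119690101-119690350, plus strand: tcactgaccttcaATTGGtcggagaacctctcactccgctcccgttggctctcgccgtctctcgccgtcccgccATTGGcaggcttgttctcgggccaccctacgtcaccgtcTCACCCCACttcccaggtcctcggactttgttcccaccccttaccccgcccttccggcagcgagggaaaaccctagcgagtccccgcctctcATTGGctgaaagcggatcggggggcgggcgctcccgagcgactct

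All 4 windows of called genes held a CCAAT box, with 3 matches in Hsd17b7 and 1 each in Cyp51, Sc5d and Insig1. Hsd17b7, tested only through its CD4SP libraries, is 1 of these 4. An E-box was present in Sc5d, Hsd17b7 and Insig1, with its first base at -98, -143 and -101 from the start, and was not found in Cyp51. Over the whole windows, CCAAT occurred in at least 1 promoter of 22 of the 29 genes (75.9%), against 41.1% of the 27025 genes in the promoter table and 43.5% of the 7769 tested genes in it. The E-box occurred in 7 of 29 (24.1%), against 8.09% and 12.0%. Those 7 were Abca1, Dhcr7, Elovl5, Hsd17b7, Insig1, Sc5d and Scap. Whether the E-box goes with the change between populations was not tested. The sterol regulatory element core occurred only in Hmgcs1 (3.45%, against 1.44% and 1.40%). NF-Y is known to act beside SREBP at sterol promoters. Base composition was not matched in these shares, and a match to these letters is not a site shown to be bound. Only these letter patterns were searched, so a missing match, as for the sterol regulatory element core in Cyp51 or Insig1, does not show that a site is absent.

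**Figure D2:**
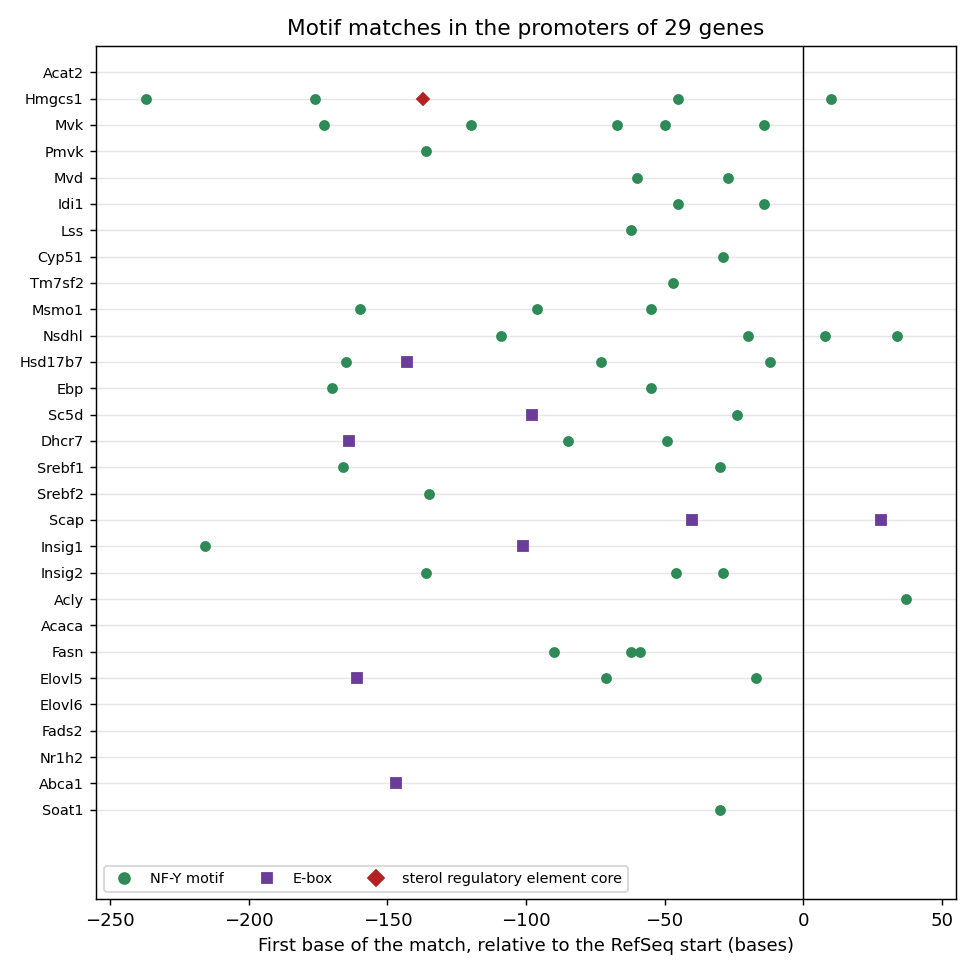
Position of each motif match, as the distance in bases of its first base from the RefSeq start, in the promoter windows of 29 genes. CCAAT matches (green circles) lie before the start in all but a few cases, E-boxes (purple squares) occur in 7 genes and the sterol regulatory element core (red diamond) in Hmgcs1 only.

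In the late steps, 4 of 10 genes were called, beside 7.92% of all tested genes, and 5 passed the adjusted p threshold in CD4SP, beside 17.6%. Of the 4 calls, Hsd17b7 rested on its CD4SP libraries to be tested at all. Sqle and Cyp51 were the late genes still called after median-of-ratios rescaling or without CD8SP replicate 3, and Sqle alone after quantile normalization. The 10 late genes together summed to 292, 245 and 280 TPM in CD4SP against 180, 179 and 168 TPM in CD8SP, so the groups did not overlap. By mean level, Ebp (118 and 93.8 TPM), which was not called, and Sc5d (51.7 and 24.7 TPM) were the largest parts of these sums. The median log2 fold change of the 10 genes was 0.75, and 9 of them lay above the median of all tested genes.

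Sqle (chr15:59315092-59331193), squalene epoxidase, which adds the first oxygen of the sterol and is a control point of the pathway, stood at 18.1, 19.4 and 15.7 TPM in CD4SP against 5.33, 4.32 and 8.06 TPM in CD8SP. Even the lowest CD4SP library was well above the highest CD8SP library. The means were 17.7 ± 1.88 and 5.90 ± 1.94 TPM (SD, n = 3), with a log2 fold change of 1.47 (standard error 0.24, limma adjusted p = 0.00435). Cyp51 (chr5:4080674-4104697), the cytochrome P450 that removes a methyl group from lanosterol, was 12.5, 8.53 and 11.0 TPM in CD4SP against 2.99, 4.65 and 2.94 TPM in CD8SP. Again the groups did not overlap, and the log2 fold change was 1.37 (standard error 0.25, limma adjusted p = 0.00667). Cyp51 and Akap9 share 166 exon bases on opposite strands, and whether the counting used strand is not given in the sources used here. Akap9 stood at 4.20 to 5.77 TPM in CD4SP against 3.99 to 4.31 TPM in CD8SP, below Cyp51 in every CD4SP library and above it in 2 of 3 CD8SP libraries.

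Sc5d (chr9:42251592-42264300), sterol C5-desaturase of the last steps, was the most abundant called gene, at 48.9, 49.2 and 57.1 TPM in CD4SP against 27.1, 25.3 and 21.8 TPM in CD8SP. The gap between the groups exceeded the spread within either. Its means were 51.7 ± 4.68 and 24.7 ± 2.66 TPM (SD, n = 3), with a log2 fold change of 1.04 (standard error 0.15, limma adjusted p = 0.00275). Hsd17b7 (chr1:169949535-169969242), the 3-ketosteroid reductase of the demethylation complex, was scarce, at 2.32, 2.27 and 3.02 TPM in CD4SP against 0.746, 0.925 and 0.585 TPM in CD8SP. All its CD8SP libraries were under 1 TPM, so it could be tested only because it was higher in CD4SP, and without it 4 genes of the list were called. Its log2 fold change was 1.01 (standard error 0.26, limma adjusted p = 0.0288).

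Msmo1, the methylsterol monooxygenase that acts after Cyp51, fell just short of 2-fold. It was 19.8, 19.1 and 15.9 TPM in CD4SP against 8.12, 10.1 and 8.04 TPM in CD8SP, with no overlap. The log2 fold change was 0.98 (standard error 0.19, limma adjusted p = 0.00867). Msmo1 shares stretches of 201 or 202 bases, at 95.5% to 97.5% identity, with Eapp, Gas2l3, Slc37a1 and Zmynd8. Ebp, the sterol isomerase, was among the 2 highest genes of the list in both populations, at 126, 106 and 124 TPM in CD4SP against 98.1, 99.2 and 84.0 TPM in CD8SP. Its libraries did not overlap either, but the log2 fold change was 0.33 (standard error 0.13, limma adjusted p = 0.106). The remaining 4 late genes did not pass and overlapped between groups. Lss, which closes squalene epoxide into lanosterol, was 6.22 to 13.0 TPM in CD4SP and 5.65 to 6.83 TPM in CD8SP, with a log2 fold change of 0.52 (95% interval -0.10 to 1.13). Nsdhl, the decarboxylating dehydrogenase of the demethylation complex, was 23.4 to 35.7 TPM in CD4SP and at most 26.4 TPM in CD8SP, with 0.42 (-0.04 to 0.89). Tm7sf2, a sterol reductase, was 3.93 to 15.1 and 3.98 to 6.88 TPM, with 0.46 (-0.47 to 1.40), and it shares 532 exon bases with Vps51 on the same strand. Dhcr7, which makes cholesterol in the final reduction, was 2.05 to 4.52 and 2.57 to 5.18 TPM, with -0.03 (-0.77 to 0.72).

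**Figure D3:**
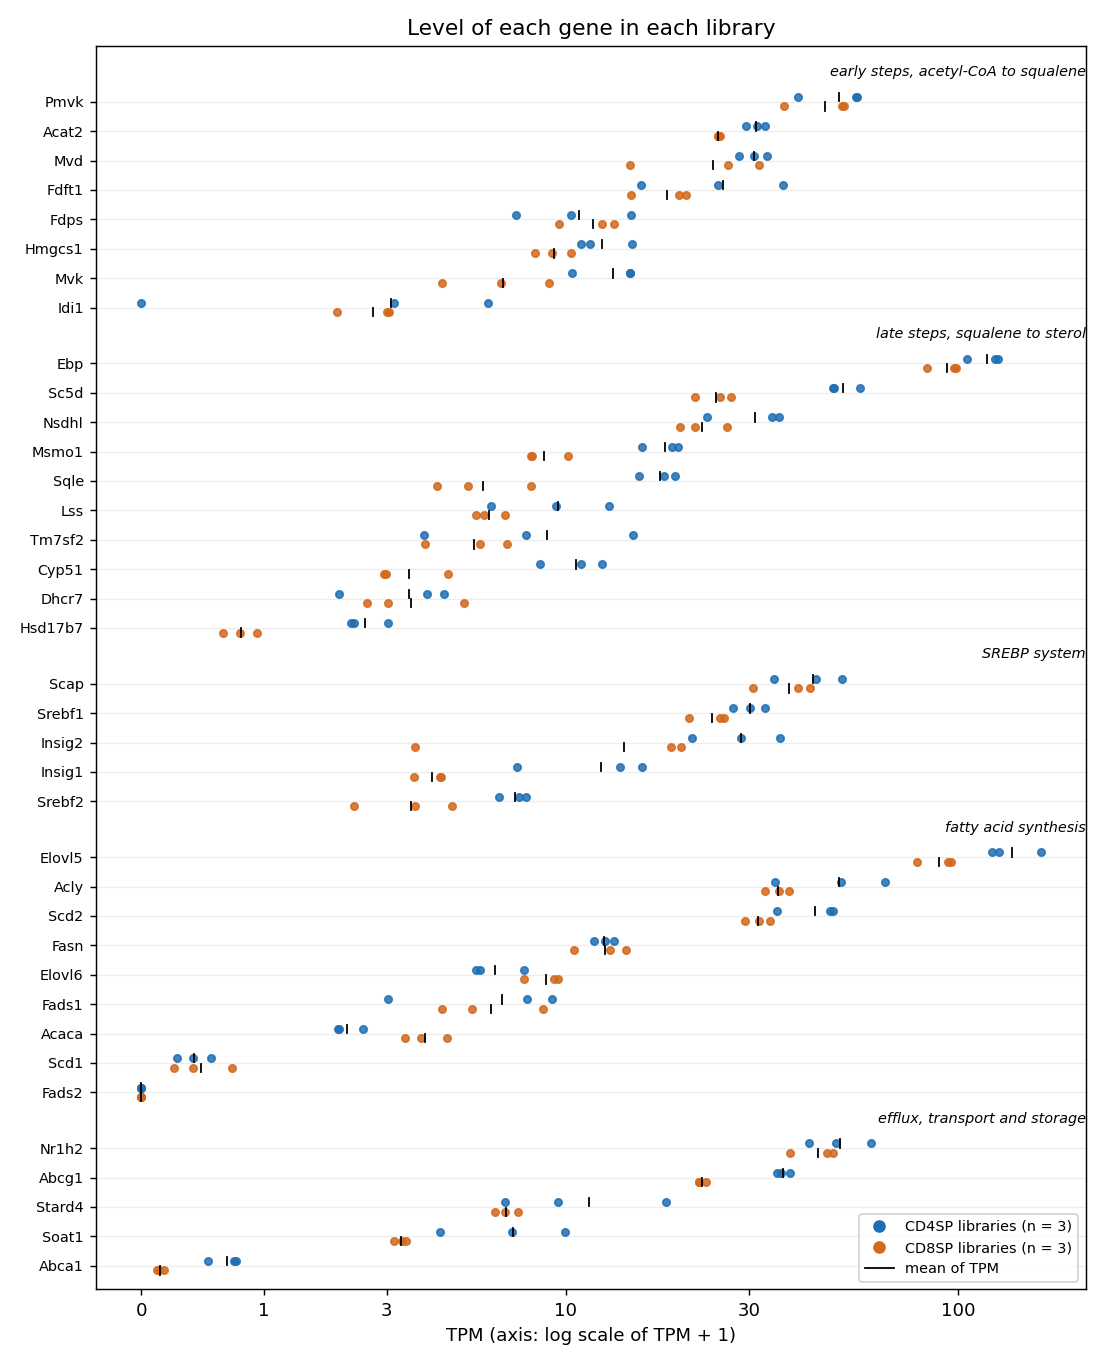
TPM of each of the 37 genes in each library, on a log axis of TPM + 1, by group (blue, 3 CD4SP libraries; orange, 3 CD8SP libraries; black ticks, means). Sqle, Cyp51, Sc5d and Msmo1 show separate clusters of points, while Fasn, Pmvk, Fads1 and Dhcr7 show overlapping ones.

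Among the 8 early genes, limma called 0, with 1 (12.5%) at an unadjusted p under 0.05, beside 31.4% of all tested genes in CD4SP. That gene, Mvk (mevalonate kinase), also passed the adjusted p threshold. Mvk was 14.8, 10.4 and 14.8 TPM in CD4SP against 9.04, 6.62 and 4.47 TPM in CD8SP, with the lowest CD4SP library just above the highest CD8SP library. The log2 fold change was 0.92 (standard error 0.27, limma adjusted p = 0.0434). Hmgcs1, which makes HMG-CoA, did not overlap between groups (11.0 to 15.0 TPM in CD4SP against 8.28 to 10.4 TPM in CD8SP) but had an adjusted p of 0.192 by limma. Acat2, the cytosolic thiolase, was 29.5 to 33.0 TPM in CD4SP against 25.0 to 25.3 TPM in CD8SP (limma adjusted p = 0.147). Its near-identical copy Acat3, with 97.7% identity over 1477 bases, ran the other way at 1.08 to 1.76 TPM and 4.60 to 5.25 TPM, so how their reads were shared out is uncertain. Added together they gave 31.1 to 34.0 TPM in CD4SP against 29.9 to 30.3 TPM in CD8SP.

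Pmvk, phosphomevalonate kinase, was the most abundant early gene, at 55.8, 39.9 and 56.2 TPM in CD4SP against 51.3, 52.2 and 36.9 TPM in CD8SP. The groups overlapped, and the log2 fold change was 0.11 (95% interval -0.34 to 0.56). Mvd, which forms isopentenyl diphosphate, overlapped too, at 28.4 to 33.3 TPM in CD4SP and 14.8 to 31.8 TPM in CD8SP (log2 fold change 0.39). So did Fdps, which makes farnesyl diphosphate, at 7.31 to 14.9 and 9.59 to 13.5 TPM (-0.16). Fdft1, squalene synthase, was 15.8 to 36.6 and 14.9 to 20.7 TPM (0.40). It shares 774 exon bases on opposite strands with Ctsb, which stood at 118 to 155 TPM in CD4SP and 59.3 to 81.0 TPM in CD8SP. Idi1, the isomerase of isopentenyl diphosphate, was listed at 0 in CD4SP replicate 1 and stood at 3.16 and 6.11 TPM in the other CD4SP libraries and 2.03 to 3.05 TPM in CD8SP. That 0 can be a failed estimate. Idi1, Fdft1, Acaca and Elovl6 have processed pseudogenes of near-identical sequence, and how their reads were assigned is not given in the sources used here. The median log2 fold change of the 8 genes was 0.35, beside 0.28 for all tested genes.

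The SREBP system had the highest group median, a log2 fold change of 0.88 over 5 genes. All 5 values were above 0, and 4 were above the median of all tested genes, 0.28. By limma 1 of the 5 was called (20%, beside 7.92% of all tested genes called higher in CD4SP). The adjusted p threshold was passed by 2 (40%, beside 17.6%). Insig1 (chr5:28071412-28078662), which retains the SREBP complex in the endoplasmic reticulum and is itself an SREBP target, was 7.35, 15.9 and 13.9 TPM in CD4SP against 4.41, 4.44 and 3.67 TPM in CD8SP. CD4SP replicate 1 lay well below the other CD4SP libraries but above all of CD8SP. The log2 fold change was 1.31 (standard error 0.29, limma adjusted p = 0.0155). Its relative Insig2 was 35.9, 21.5 and 28.6 TPM in CD4SP against 19.0, 3.70 and 20.1 TPM in CD8SP. CD8SP replicate 2 was far below the other CD8SP libraries, and Insig2 did not pass, with a log2 fold change of 1.21 (standard error 0.53, limma adjusted p = 0.135).

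Srebf2, which encodes the SREBP most tied to sterol synthesis, was 7.82, 7.43 and 6.53 TPM in CD4SP against 3.69, 4.77 and 2.32 TPM in CD8SP. The groups did not overlap, and the log2 fold change was 0.88 (standard error 0.26, limma adjusted p = 0.0452). Srebf1, whose products favour fatty acid genes, was 32.9, 30.2 and 27.4 TPM in CD4SP against 25.9, 25.4 and 21.0 TPM in CD8SP. Its groups were separate but close, with a log2 fold change of 0.31 (standard error 0.16, limma adjusted p = 0.192), near the median of all tested genes. Srebf1 shares 109 exon bases with Rai1 on the opposite strand. Scap, the sterol-sensing escort, was 51.4, 34.8 and 44.2 TPM in CD4SP against 39.9, 42.7 and 30.8 TPM in CD8SP, which overlapped (log2 fold change 0.19, 95% interval -0.25 to 0.63). Levels in TPM are per length, but this does not remove other biases between genes, such as those of cDNA amplification or read assignment. Comparisons between genes, here and in the order of levels below, are therefore rough. As listed, mean Srebf1 exceeded mean Srebf2 in both populations, at 30.2 against 7.26 TPM in CD4SP and 24.1 against 3.59 TPM in CD8SP.

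The 7 tested genes of fatty acid synthesis had a median log2 fold change of 0.03, below that of all tested genes. By limma 0 were called, with 2 at an unadjusted p under 0.05 higher in CD4SP (Elovl5 and Scd2), beside 31.4% of all tested genes, and 1 in CD8SP (Acaca), beside 5.69%. Fasn, the synthase itself, was 13.4, 11.9 and 12.7 TPM in CD4SP against 14.4, 13.1 and 10.6 TPM in CD8SP, with a log2 fold change of 0.01 (95% interval -0.42 to 0.43). Acaca, acetyl-CoA carboxylase, which supplies malonyl-CoA, was 2.50, 2.04 and 2.05 TPM in CD4SP against 3.85, 3.43 and 4.62 TPM in CD8SP. It alone had every CD8SP library above every CD4SP library, with a log2 fold change of -0.63 (standard error 0.24, limma adjusted p = 0.0906). Whether the late sterol and fatty acid groups differ in their change was not tested.

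Elovl5, which lengthens polyunsaturated fatty acids, was the gene of highest mean level over all 6 libraries, at 126, 121 and 160 TPM in CD4SP against 95.9, 94.6 and 79.2 TPM in CD8SP. In CD8SP alone the mean of Ebp was higher, at 93.8 against 89.9 TPM. Elovl5 passed the adjusted p threshold without reaching 2-fold (log2 fold change 0.59, standard error 0.15, limma adjusted p = 0.0272). Acly, which makes cytosolic acetyl-CoA from citrate, was 51.1, 35.0 and 65.8 TPM in CD4SP against 33.0, 35.7 and 38.0 TPM in CD8SP. CD4SP replicate 2 fell inside the CD8SP range, and Acly did not pass (log2 fold change 0.45, limma adjusted p = 0.173). Scd2, a stearoyl-CoA desaturase, was 35.3 to 48.9 TPM in CD4SP against 29.4 to 34.0 TPM in CD8SP (limma adjusted p = 0.0924). Scd1, which shares 95.5% identity with Scd2 over 623 bases, was 0.200 to 0.665 TPM in all 6 libraries and was not tested. Elovl6, which lengthens saturated fatty acids, was 5.63 to 7.69 TPM in CD4SP and 7.68 to 9.52 TPM in CD8SP, with a log2 fold change of -0.42 (95% interval -0.91 to 0.06). Of the desaturases of polyunsaturated fatty acids, Fads1 was 3.03 to 9.16 and 4.47 to 8.67 TPM, with 0.03 (-0.85 to 0.90), and Fads2 was listed at 0 throughout.

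Of the 4 tested efflux, transport and storage genes, limma called 0, with 2 at an unadjusted p under 0.05 (Abcg1 and Soat1), both higher in CD4SP, beside 31.4% of all tested genes. Abcg1, a sterol exporter, varied little within groups, at 36.2, 38.1 and 35.3 TPM in CD4SP against 22.4, 23.3 and 22.4 TPM in CD8SP. The groups were fully separate, and the log2 fold change was 0.66 (standard error 0.14, limma adjusted p = 0.0123), under 2-fold. Abca1, the other LXR-controlled exporter, was too low to test, at 0.687, 0.708 and 0.460 TPM in CD4SP against 0.0945, 0.139 and 0.106 TPM in CD8SP. Nr1h2, which encodes LXR-beta, was 61.0, 42.5 and 49.6 TPM in CD4SP against 48.9, 47.2 and 38.1 TPM in CD8SP, with overlap (log2 fold change 0.18, 95% interval -0.22 to 0.58). Soat1, which esterifies cholesterol for storage, was 4.42 to 9.97 TPM in CD4SP against 3.17 to 3.46 TPM in CD8SP. Its libraries did not overlap, and the limma adjusted p was 0.0666 at a log2 fold change of 0.86. Stard4, a carrier of cholesterol between membranes, was 6.79 to 18.4 TPM in CD4SP against 6.37 to 7.40 TPM in CD8SP, which overlapped (log2 fold change 0.57).

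**Figure D4:**
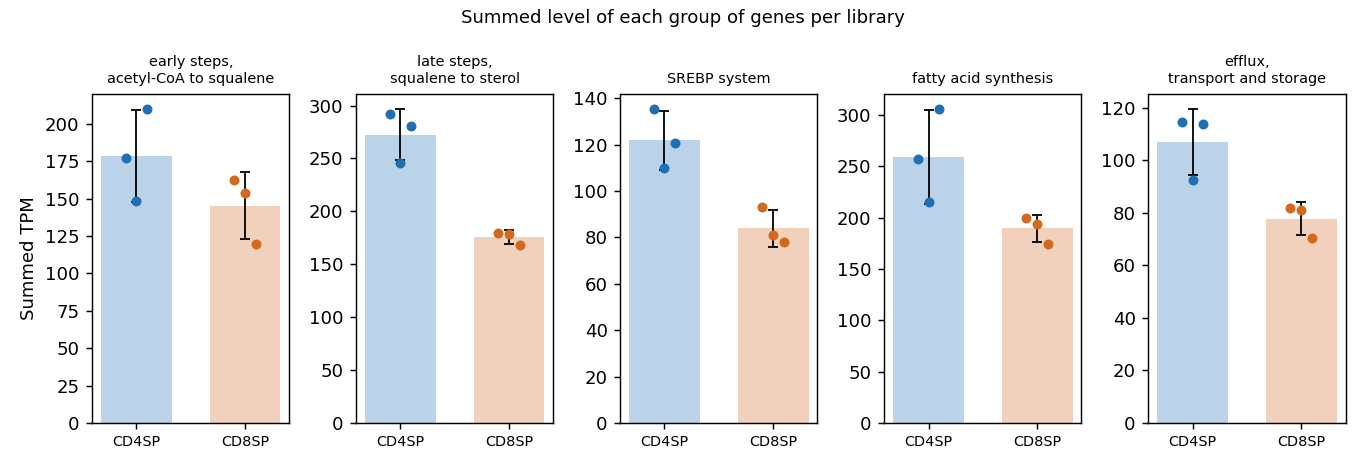
Summed TPM per library of each group of genes (bars, mean; error bars, SD; points, the 3 libraries of each population). Late steps, the SREBP system, fatty acid synthesis and efflux sums do not overlap, whereas the early steps overlap (148 to 210 TPM in CD4SP, 120 to 163 TPM in CD8SP).

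Summed levels of the fatty acid genes rest largely on Elovl5. The 9 fatty acid genes summed to 257, 215 and 306 TPM in CD4SP against 200, 194 and 175 TPM in CD8SP. The SREBP genes summed to 135, 110 and 121 TPM in CD4SP against 93.0, 81.0 and 77.9 TPM in CD8SP. Over all 37 genes the sums were 976, 811 and 1030 TPM in CD4SP against 717, 688 and 611 TPM in CD8SP. The order of levels was alike in both populations at the top: Elovl5 and Ebp led, at 136 ± 21.1 and 118 ± 11.0 TPM in CD4SP against 89.9 ± 9.31 and 93.8 ± 8.49 TPM in CD8SP (SD, n = 3), and in neither did they differ beyond their spread. Further down, Sc5d ranked 3 in CD4SP and 9 in CD8SP, at 51.7 ± 4.68 and 24.7 ± 2.66 TPM (SD, n = 3). The genes ranked just below it lay within that spread, Nr1h2 at 51.0 TPM in CD4SP and Mvd at 24.4 TPM in CD8SP. Libraries of a group spread widely for a few genes. On the log2(TPM + 1) scale, the distance from lowest to highest CD4SP library was 2.83 for Idi1, 1.70 for Tm7sf2 and 1.33 for Fads1, and among CD8SP libraries it was 2.17 for Insig2.

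Sqle was called under all 17 processing alternatives, with log2 fold changes of 1.10 to 1.69. Cyp51 was called under 16 and fell to 0.999, just under 2-fold, after quantile normalization. Insig1 lost its call in 4, which were the median-of-ratios rescaling, quantile normalization and the fits without CD4SP replicate 3 (1.21, limma adjusted p = 0.0609) or without CD8SP replicate 3 (1.24, limma adjusted p = 0.0568), over a range of adjusted p from 0.00535 to 0.0925. Sc5d kept its adjusted p under 0.05 in every alternative (highest 0.0147) but was under 2-fold in 6, among them the fits without CD4SP replicate 3 (0.96) and without CD8SP replicate 3 (0.95). Hsd17b7 could be tested in 13 alternatives and lost its call in 7, including each fit without 1 CD8SP library (limma adjusted p 0.0744 to 0.111). Direction did not reverse for any of the 10 genes with adjusted p under 0.05 in these alternatives. In all 10 every CD4SP library lay above every CD8SP library, so only the alternatives that change scaling could have reversed it. Msmo1 gained a call in 5 of the 17 alternatives, Mvk in 4, and Srebf2, Abcg1 and Elovl5 in 1 each. Soat1 was called with library weights and without CD4SP replicate 2. For the 5 genes with adjusted p under 0.05 and no call, the highest adjusted p over the alternatives was 0.0594 for Msmo1, 0.153 for Mvk, 0.228 for Srebf2, 0.146 for Abcg1 and 0.144 for Elovl5.

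Scaling moved the whole table as well as these genes. Of all called genes, 81.5% were higher in CD4SP as reported, 57.1% after quantile normalization, 61.4% after median-of-ratios rescaling and 72.8% once ribosomal protein genes were dropped. The median of all tested genes went from 0.28 to 0.15 with ribosomal protein genes removed and to -0.02 after quantile normalization, and was about 0 by construction after median-of-ratios rescaling. Called sterol and fatty acid genes numbered 4 with ribosomal protein genes removed, or 11.8% of the tested list beside 6.38% of all tested genes called higher in CD4SP. Without CD4SP replicate 3 the count was 3 (Sqle, Cyp51 and Msmo1), or 9.09% beside 5.57%.

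**Figure D5:**
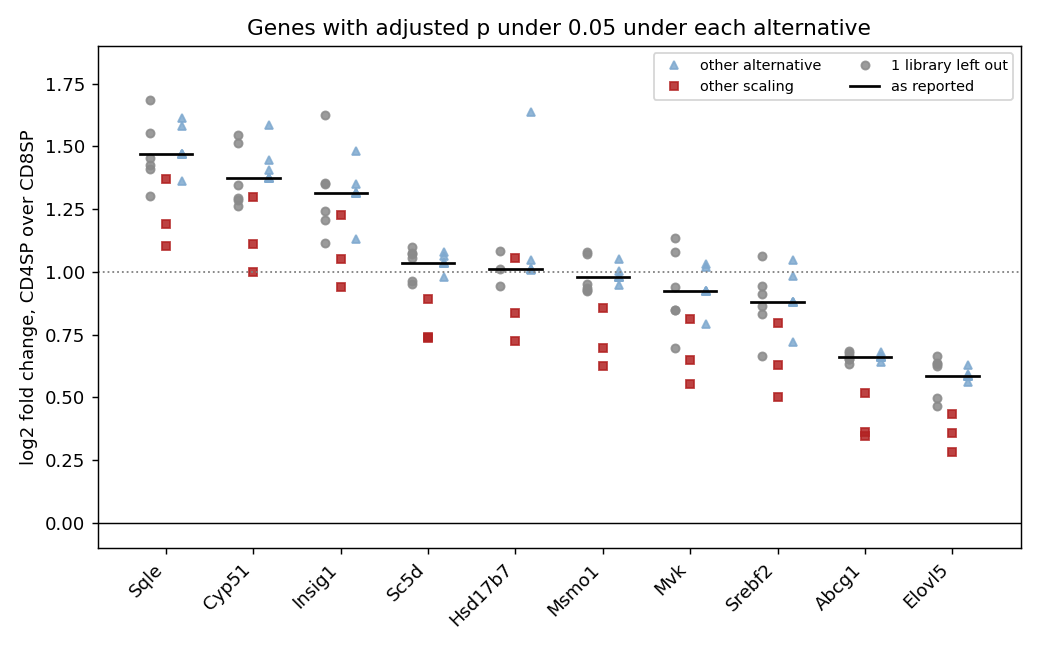
Log2 fold change, CD4SP over CD8SP, of the 10 genes with adjusted p under 0.05, as reported (black bar) and under each alternative (grey circles, 1 library left out; red squares, other scaling; blue triangles, others). All points lie above 0, which only the other scalings could have changed, because the groups did not overlap for these genes. A scaling gives the lowest value for each of the 10 genes, and Sqle alone stays above the 2-fold line (dotted) throughout.

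Other genes of these pathways were read from lists chosen for their role. Of 21 other sterol genes, all tested, limma called 0 (6 at an unadjusted p under 0.05 in CD4SP, beside 31.4% of all tested genes, and 1 in CD8SP, beside 5.69%). The adjusted p threshold was passed by 5 (23.8%, beside 17.6% of all tested genes), all higher in CD4SP. Among them were the SREBP proteases Mbtps1 (log2 fold change 0.57, limma adjusted p = 0.0442) and Mbtps2 (0.82, 0.0442), and the endoplasmic reticulum ubiquitin ligases Rnf139 (0.86, 0.0198) and Rnf145 (0.75, 0.0118), which act on the INSIG and sterol-sensing machinery. The median of the 21 was 0.18, below that of all tested genes. Of 27 other fatty acid synthesis genes, 16 were tested and 3 were called, 2 higher in CD4SP and 1 in CD8SP. These are 12.5% and 6.25% of the 16, beside 7.92% and 1.8% of all tested genes. The adjusted p threshold was passed by 2 in each direction (12.5%, beside 17.6% of all tested genes in CD4SP and 3.23% in CD8SP).

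Hacd3, a dehydratase of fatty acid elongation listed under its older symbol Ptplad1, was 76.3, 80.9 and 92.1 TPM in CD4SP against 36.5, 31.8 and 31.7 TPM in CD8SP (log2 fold change 1.29, standard error 0.14, limma adjusted p = 0.000635). Fabp5, a fatty acid binding protein, was 118, 180 and 98.1 TPM in CD4SP against 35.0, 34.3 and 40.5 TPM in CD8SP (1.78, standard error 0.22, limma adjusted p = 0.00116). Both were higher in CD4SP with no overlap. Elovl7, an elongase of saturated fatty acids, was called higher in CD8SP, at 2.24, 3.15 and 2.94 TPM against 0, 0.285 and 0.310 TPM in CD4SP (-1.66, standard error 0.28, limma adjusted p = 0.00522), and it entered the test through CD8SP alone. Mecr, a reductase of mitochondrial fatty acid synthesis, passed the adjusted p threshold without a call, at 25.7, 23.1 and 27.2 TPM in CD4SP against 36.8, 38.8 and 43.2 TPM in CD8SP. Every CD8SP library was above every CD4SP library (-0.62, standard error 0.15, limma adjusted p = 0.0207). The called share of these 2 lists together was 5.41% for CD4SP and 2.70% for CD8SP, beside the 7.92% and 1.8% of all tested genes given above.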

How the data were processed

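Poly(A) RNA of 3 CD4SP and 3 CD8SP iT cell libraries was analysed, with groups and replicate numbers taken from the sample titles. According to the study's methods and the submitters' processing notes, the authors amplified cDNA from 1000 sorted cells, aligned reads to mm10 with HISAT2, estimated expression with StringTie and deposited TPM, 1 column per library. Depth, duplicate handling and strand use are not given in the sources used here. The table held 23420 rows, 9818 of them 0 in all libraries and 27 with names turned into dates. Library totals agreed closely.

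The 10476 genes that reached 1 TPM in 3 or more libraries were tested on log2(TPM + 1) with limma 3.58.1 in R 4.3.3 (lmFit, eBayes with trend, population as the only term), with Benjamini-Hochberg adjustment over all of them. Calls required an adjusted p under 0.05 and over 2-fold, the thresholds the study used in another comparison. TPM are not counts, so no count test was run, and no multiples of a single read can be read from TPM. The fitting code was tested on simulated data. Alternatives covered the pseudocount (0.1), filters, scaling, variance model, library weights, replicate block, call rule, averaging of CD8SP replicates 1 and 2, and leaving out each library.

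The members and lists were chosen with earlier results of these data known. Of the 37 genes, every called gene, every gene with an adjusted p under 0.05, the 5 of highest mean TPM and the SREBP system are given per library, the others mostly by range. Of the other lists, called genes could be named, and those named with an adjusted p under 0.05 and no call were added after their values were seen. Gene positions, promoter windows and older symbols came from RefSeq GRCm38.p6, the assembly behind mm10. Exon overlaps and sequence copies (at least 95% identity over at least 200 bases) came from GENCODE vM21. The values of 1 gene of the other sterol list are not reported here.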

Additional observations from a re-analysis of the deposited data

How the results depend on the processing

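Called genes of the list numbered 5, and 1 after quantile normalization, 2 after median-of-ratios rescaling and 10 by adjusted p alone, where genes of the other lists (sterol, fatty acid synthesis and fatty acid oxidation) went from 3 to 15. As a share of the tested list these calls were 14.7%, 2.94%, 5.88% and 29.4%, beside 7.92%, 4.24%, 4.62% and 17.6% of all tested genes in CD4SP, so the list's share was below that of all genes after quantile normalization, and also without CD8SP replicate 3 (5.88% beside 6.60%). Leaving out 1 library gave 2 to 6 called genes, 17 to 24 genes with all CD4SP libraries above, 2 to 4 called genes of the other lists, and a median log2 fold change of 0.32 to 0.60. The called share of the tested list was then 5.88% to 18.2%, beside 5.57% to 8.29% of all tested genes in CD4SP. Counts of the other lists hold both directions. Over all tested genes, calls in both directions numbered 1019 as reported and 2183 by adjusted p alone. With 1 library left out they numbered 752 to 1042. A fit with 1 library left out pools the spread over both groups. As reported, 17 genes had all CD4SP libraries above, and 11 after either of these rescalings, by median of ratios or by quantiles. The share of all tested genes fell with it, from 36.6% to 18.8% and 17.9%, and without CD4SP replicate 2, where the list had 24, it was 54.7%. In the other fits with 1 library left out that share was 40.0% to 41.3%. The median log2 fold change of the list, 0.44, was 0.52 with library weights, 0.29 once ribosomal protein genes were dropped, 0.11 after quantile normalization and 0.14 after median-of-ratios rescaling. Its excess over the median of all tested genes ran from 0.08 to 0.24 in these settings. The cause of these shifts was not tested.

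Same-numbered CD4SP and CD8SP libraries deviated together weakly (correlations -0.0168 to 0.0887). With 3 libraries per group this cannot decide whether same-numbered libraries share a mouse or batch, and the labels do not say. With the replicate block 5 genes were called, with Insig2 gained and Hsd17b7 lost, the median stayed at 0.44 and 997 of all genes were called against 1019. With CD8SP replicates 1 and 2 averaged, 5 genes were called, with Msmo1 gained and Hsd17b7 lost (limma adjusted p = 0.0938). In that setting 809 of all genes were called. It counts CD8SP replicates 1 and 2 as 1 library, and they had the highest library weights. The labels do not say whether they share a source, which would make the CD8SP spread too small. Library weights were 4.59, 2.84 and 0.443 for CD8SP replicates 1 to 3. They were 0.851, 0.233 and 0.875 for CD4SP replicates 1 to 3. Of the 24 genes with adjusted p over 0.05, 9 changed direction under at least 1 of 17 alternatives (Acat2, Dhcr7, Fads1, Fasn, Fdps, Idi1, Nr1h2, Pmvk and Scap). Counting motifs only before the start gave 21 genes with CCAAT in place of 22, and 7 and 1 for the E-box and the sterol regulatory element core. TPM keep no depth, so detection limits for Fads2, Scd1 and Abca1 could not be set.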

Other observations

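Genes of fatty acid oxidation, the route that burns fatty acids in mitochondria, were read beside the synthesis genes. Of 17 listed genes 16 were tested and limma called 0, with 5 at an unadjusted p under 0.05 in CD4SP, beside 31.4% of all tested genes, and 1 in CD8SP, beside 5.69%. The same numbers passed the adjusted p threshold, which is 31.2% and 6.25% of the 16, beside 17.6% and 3.23% of all tested genes. Higher in CD4SP were Cpt1a, which loads fatty acids for mitochondrial import (61.3 ± 3.26 against 38.4 ± 4.15 TPM, SD, n = 3, log2 fold change 0.67, limma adjusted p = 0.0127), the carnitine carrier Slc25a20 (0.52, 0.028), the dehydrogenase Hadh (0.61, 0.0438), the isomerase Eci1 (0.77, 0.0107) and Etfa (0.63, 0.0237). Etfb, the partner of Etfa in the electron transfer flavoprotein, was higher in CD8SP (269 ± 31.6 against 375 ± 31.6 TPM, log2 fold change -0.48, limma adjusted p = 0.0295). The median log2 fold change of the 16 genes was 0.27, beside 0.28 for all tested genes.

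Of 12 proliferation genes, all tested, limma called 0, beside 7.92% of all tested genes called higher in CD4SP, with 2 at an unadjusted p under 0.05, beside 31.4%. Rrm2, a subunit of ribonucleotide reductase, alone passed the adjusted p threshold, which is 8.33% of the 12 beside 17.6% of all tested genes (117 ± 20.9 TPM in CD4SP, 80.7 ± 4.15 TPM in CD8SP, SD, n = 3, log2 fold change 0.51, limma adjusted p = 0.0435). The median of the 12 was 0.20. Erythroid markers were listed at 0 in 5 of 6 libraries, and stromal and endothelial markers summed to 2.59 to 6.87 TPM in CD4SP and 1.52 to 3.21 TPM in CD8SP.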
